A study of Mus musculus with 6 samples.

Results

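Matrix metalloproteinases (Mmp), ADAMTS proteases (Adamts), ADAMTS-like proteins (Adamtsl) and tissue inhibitors of metalloproteinases (Timp) were compared between mouse osteosarcoma lines and cultured osteoblasts. The genes were picked by a rule on their symbols, which was set with earlier results of these data known. Of the 19938 genes measured, 49 belonged to these families. They comprised 22 Mmp, 18 Adamts, 5 Adamtsl and 4 Timp genes, covered by 74 probe sets. Where several probe sets read a gene, the brightest over the 6 arrays was used. The Mmp15 and Adamts2 genes match the symbols as well and were not analysed here.

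The 3 osteosarcoma lines, OS_493H, OS_494H and OS_716H, were each derived from a primary bone tumour of a C57Bl6 mouse that was fl/fl for Rb and p53 and Osx-Cre+. In this model Cre recombinase is driven by the promoter of Osterix (Sp7), a transcription factor of the osteoblast lineage. Per the labels, OS_493H came from the hip of a female of age 188, OS_494H from the hip of a male of age 190 and OS_716H from the tibia of a female of age 226, with no unit of age given. The comparison group was KUSA4b10, a single mouse bone marrow stromal line of the same strain, kept for 21 days after confluence in medium with 50 ug/ml ascorbate. Its 3 samples are called cultures 1 to 3. Their titles number them rep 1 to 3 and Ex1 to Ex3, without saying what Ex stands for. Whether the cultures were grown independently is not stated. The p-values therefore measure only the spread between these samples, which may be technical in the cultures. All 6 samples were grown in RPMI with serum, glutamax and antibiotics, and 1 Affymetrix Mouse Gene ST array was run on the total RNA of each. Ascorbate and confluence are described for the KUSA4b10 cells only, so tumour origin, growth state and differentiation cannot be told apart.

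Matrix metalloproteinases are zinc proteases that are made as inactive precursors and cut collagens, gelatin, proteoglycans and other proteins outside the cell. ADAMTS proteases are secreted relatives with thrombospondin repeats that trim procollagens and cut proteoglycans such as aggrecan and versican, whereas ADAMTS-like proteins have the repeats without a protease domain. TIMPs bind the active site and block it. In bone, these enzymes take part in replacing cartilage by bone and in turning over type I collagen, and MMP13 is the main collagenase of osteoblasts and hypertrophic chondrocytes.

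Expression is given as log2 values, on which 1 unit is a 2-fold difference, and the median of all values was 7.53. Levels of different genes were not compared, since each probe set has its own brightness. Culture 2 stood apart from cultures 1 and 3: 150 and 186 genes differed from it by more than 1 log2 unit, against 3 genes between cultures 1 and 3. The array labelled OS_716H, a female, went against its label, with Xist at 5.50 and the Y-linked gene Uty at 10.06, against 5.31 and 9.90 in the male line. For the 49 genes, calls that change without culture 2 or without OS_716H are given without that array as well. Of 6 measured osteoblast markers, 3 were lower in the lines: bone sialoprotein (Ibsp) lay between 6.40 and 8.20 in the lines and between 12.91 and 13.67 in the cultures, and Dmp1 and Phex fell with it. All 8 adipocyte markers were also lower in the lines, where their mean log2 level was 7.75 to 8.29 against 11.21 to 11.98 in the cultures. All 4 measured proliferation markers were higher in the lines (11.43 to 11.83 against 8.46 to 9.65). Of 4 smooth muscle markers, 2 were higher in the lines: calponin (Cnn1) by 4.81, the largest rise of all genes, and Tagln by 2.09 (mean log2 level of the list 10.91 to 11.46 against 8.91 to 9.66). None of the 7 neutrophil markers, whose cells store MMP8 and MMP9, passed, and their mean was 6.13 to 6.24 in the lines against 6.21 to 6.23 in the cultures. Of 7 macrophage markers Cd14 rose (0.53) and none fell, and the list had a mean of 6.64 to 6.71 against 6.56 to 6.65. Of 8 osteoclast markers Acp5 rose (0.86) while Ctsk and Atp6v0d2 fell (-1.65 and -1.61), with a mean of 7.35 to 7.5 against 7.60 to 7.71. Both group means of Atp6v0d2 (5.66 in the lines and 7.27 in the cultures) were under the median of all values. Of 8 chondrocyte markers Col10a1 fell (-3.40), and none of the 5 endothelial markers passed. The part of these marker differences in the results below was not tested. In RNA from whole cultures, fewer cells of a type and less RNA per cell cannot be told apart.

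Of the 22 Mmp genes, 10 follow each other on mouse chromosome 9 with no other protein-coding gene between them in the RefSeq annotation, in the order Mmp13, Mmp12, Mmp1b, Mmp3, Mmp1a, Mmp10, Mmp8, Mmp27, Mmp20 and Mmp7. Promoters of this cluster are known for a binding site of AP-1, the dimer of Fos and Jun proteins. The RefSeq promoter table of build GRCm38.p6 held 34 of the 49 genes. The motif TGANTCA, which reads the same on both strands, was searched from 250 bases before to 50 after each start, with genes that have more than 1 start counted if any window held it. It was present in 8 of the 10 cluster genes and in 0 of the other 24 genes, against 7.81% of all 32851 windows. A Runx motif, TGTGGT on either strand, was found in 6 of the 34 genes (16.8% of all windows), and an ETS motif, CCGGAA on either strand, in 1 (14.9% of all windows). These are matches of letters, not shown binding sites. The 120 bases before the RefSeq start are shown for Mmp13, the cluster gene with the largest difference, for Mmp3 and Mmp10 of the same cluster, which hold the AP-1 motif too, for Mmp8 without it, and for Mmp14, a gene outside the cluster that shares the Runx motif with Mmp13. Capitals mark the AP-1 and Runx motifs.
Mmp13, chr9:7272394-7272513, plus strand: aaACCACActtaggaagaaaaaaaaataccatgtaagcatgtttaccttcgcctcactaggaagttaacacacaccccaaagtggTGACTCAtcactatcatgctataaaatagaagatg
Mmp3, chr9:7445702-7445821, plus strand: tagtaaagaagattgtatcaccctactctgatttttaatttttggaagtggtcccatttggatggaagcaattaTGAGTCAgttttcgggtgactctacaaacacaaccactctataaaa
Mmp10, chr9:7502222-7502341, plus strand: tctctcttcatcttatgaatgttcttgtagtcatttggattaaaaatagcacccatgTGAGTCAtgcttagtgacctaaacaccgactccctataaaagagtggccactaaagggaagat
Mmp8, chr9:7558309-7558428, plus strand: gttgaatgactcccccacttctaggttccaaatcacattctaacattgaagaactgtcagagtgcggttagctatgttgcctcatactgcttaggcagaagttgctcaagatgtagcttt
Mmp14, chr14:54431478-54431597, plus strand: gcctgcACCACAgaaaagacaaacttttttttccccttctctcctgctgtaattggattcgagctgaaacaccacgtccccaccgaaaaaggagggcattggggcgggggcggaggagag

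Counted from the start, whose last preceding base is -1, the AP-1 motif began at position -35 in Mmp13, -46 in Mmp3 and -63 in Mmp10. These positions depend on the annotated start. The letters TATAAA began at -16 in Mmp13, -7 in Mmp3 and -29 in Mmp10, so distances from the start are not directly comparable between these genes. The Runx motif began at -118 in Mmp13 and -114 in Mmp14. On the arrays, the difference between lines and cultures was -3.74 for Mmp13, -0.16 for Mmp3, -0.15 for Mmp10 and -0.67 for Mmp14, and of these Mmp14 alone passed the test described below. The other genes with the Runx motif, Mmp1b, Mmp7, Mmp23 and Mmp27, did not pass (0.03, -0.13, 0.33 and -0.22). Among the genes with a window, 1 of 5 called lower, 0 of 3 called higher and 5 of 26 not called held the Runx motif. A relation of these motifs to expression was not tested.

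Across the families, 5 genes rose and 8 fell in the lines relative to the cultures (limma, adjusted p under 0.05 by Benjamini-Hochberg with all 19938 genes tested), and 36 did not pass. The 5 higher genes were 10.2% of the 49, against 13.2% of all genes, and the 8 lower genes were 16.3%, against 11.4%. A called change of at least 2-fold was found for 5 of the 49 genes (10.2%), against 6.88% of all genes. For 24 of the 49, all lines lay on the same side of all cultures, which was so for 41.5% of all genes. These shares were near the background of this comparison, and the median difference was -0.05, against -0.02 over all genes. By family, none of the 22 Mmp genes rose and 4 fell, 3 of the 5 Adamtsl genes rose and 1 fell, 1 of 18 Adamts genes rose and 2 fell, and 1 Timp rose and 1 fell. Without OS_716H, 5 of the 49 were higher and 10 lower, and without culture 2, 5 and 6. Without culture 1, 3 were higher and 4 lower, without culture 3 it was 5 and 5, and without OS_494H 8 and 8, of which 4 and 3 were Adamts genes.

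**Figure D1:**
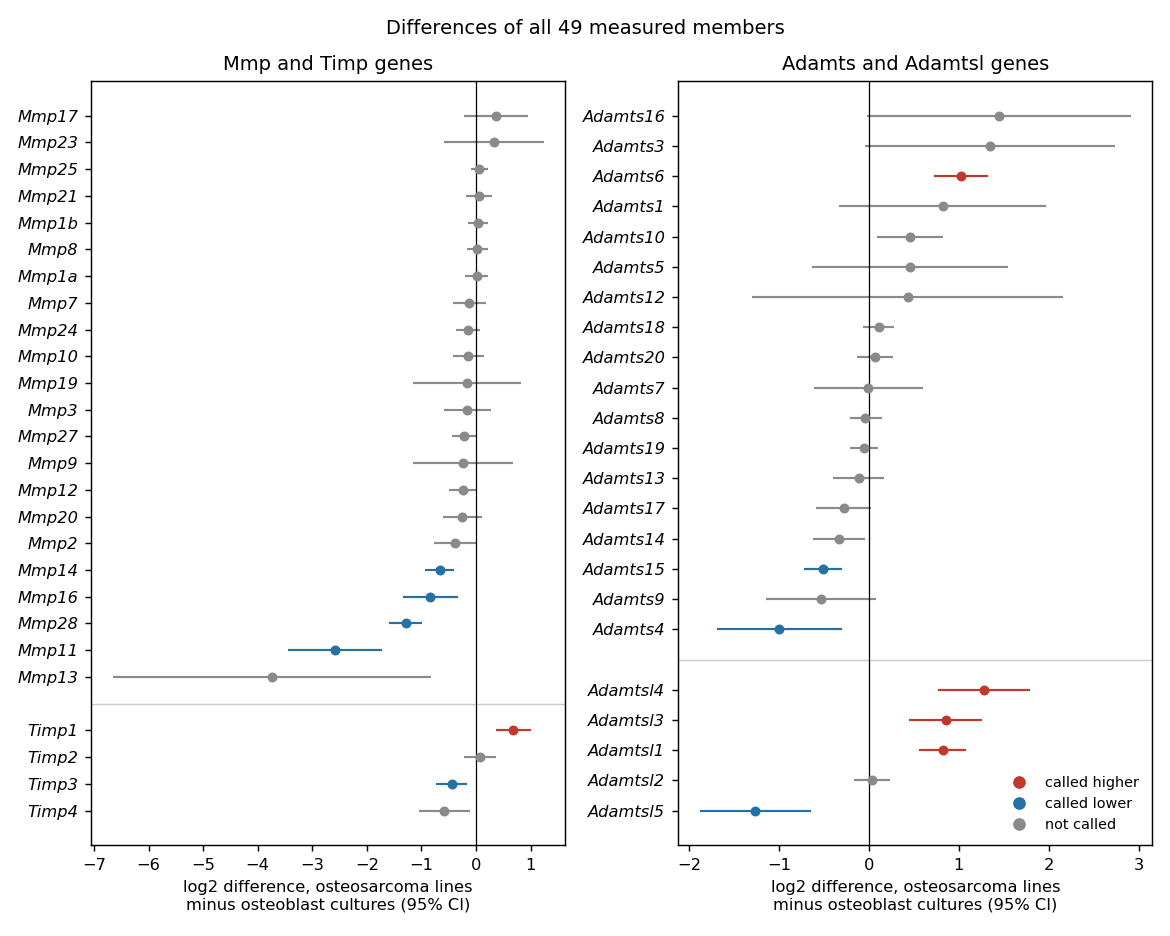
Log2 difference of each of the 49 genes, osteosarcoma lines minus osteoblast cultures, with the 95% confidence interval of the limma fit, on axes that differ between the panels. The 4 Mmp genes called lower lie between -0.67 and -2.59, the 3 Adamtsl genes called higher lie between 0.82 and 1.28, and Mmp13 has the widest interval, from -6.66 to -0.83.

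Among the metalloproteinases that fell, Mmp11 changed most. Mmp11 encodes stromelysin 3, an enzyme that furin activates inside the cell and that is common in stromal cells around tumours. It read 10.31, 9.41 and 10.32 in OS_493H, OS_494H and OS_716H, against 12.90, 11.92 and 12.98 in cultures 1, 2 and 3. Every line lay below every culture, and culture 2 was the lowest culture. The level was 6.02-fold lower in the lines, a log2 difference of -2.59 ± 0.36 (SE, adjusted p = 0.00355), which placed it 67th among all genes by size of fall. Without culture 2 the difference was -2.93, and without OS_716H -2.74, and the call held on leaving out any array (adjusted p up to 0.021).

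Mmp28, which encodes epilysin, a secreted metalloproteinase of skin and other epithelia, fell with less spread. Its values were 7.96, 7.57 and 7.84 in OS_493H, OS_494H and OS_716H, and 9.06, 9.22 and 8.96 in cultures 1, 2 and 3. The 3 lines lay close together and well under the lowest culture. The difference was -1.29 ± 0.12 (SE, adjusted p = 0.00124), a 2.44-fold lower level and the smallest adjusted p of the 49 genes.

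Both of the membrane-bound enzymes that passed were lower in the lines. Mmp14 encodes MT1-MMP, the collagenase of the cell surface that, together with TIMP2, activates MMP2. It was 12.32, 11.97 and 12.34 in OS_493H, OS_494H and OS_716H against 12.88, 12.83 and 12.91 in the cultures, a difference of -0.67 ± 0.11 (SE, adjusted p = 0.00721). The cultures differed by 0.08 at most, and the lines did not reach them. Mmp16, which encodes the related MT3-MMP, was 9.25, 9.97 and 10.03 in the lines against 10.52, 10.68 and 10.56 in the cultures (-0.84 ± 0.21 SE, adjusted p = 0.0279). OS_493H was the lowest line here, and the call of Mmp16 was lost on leaving out any 1 culture (adjusted p of 0.0825, 0.0867 and 0.0872). The other measured genes of this group, Mmp17, Mmp24 and Mmp25, did not pass (differences of 0.36, -0.14 and 0.06).

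**Figure D2:**
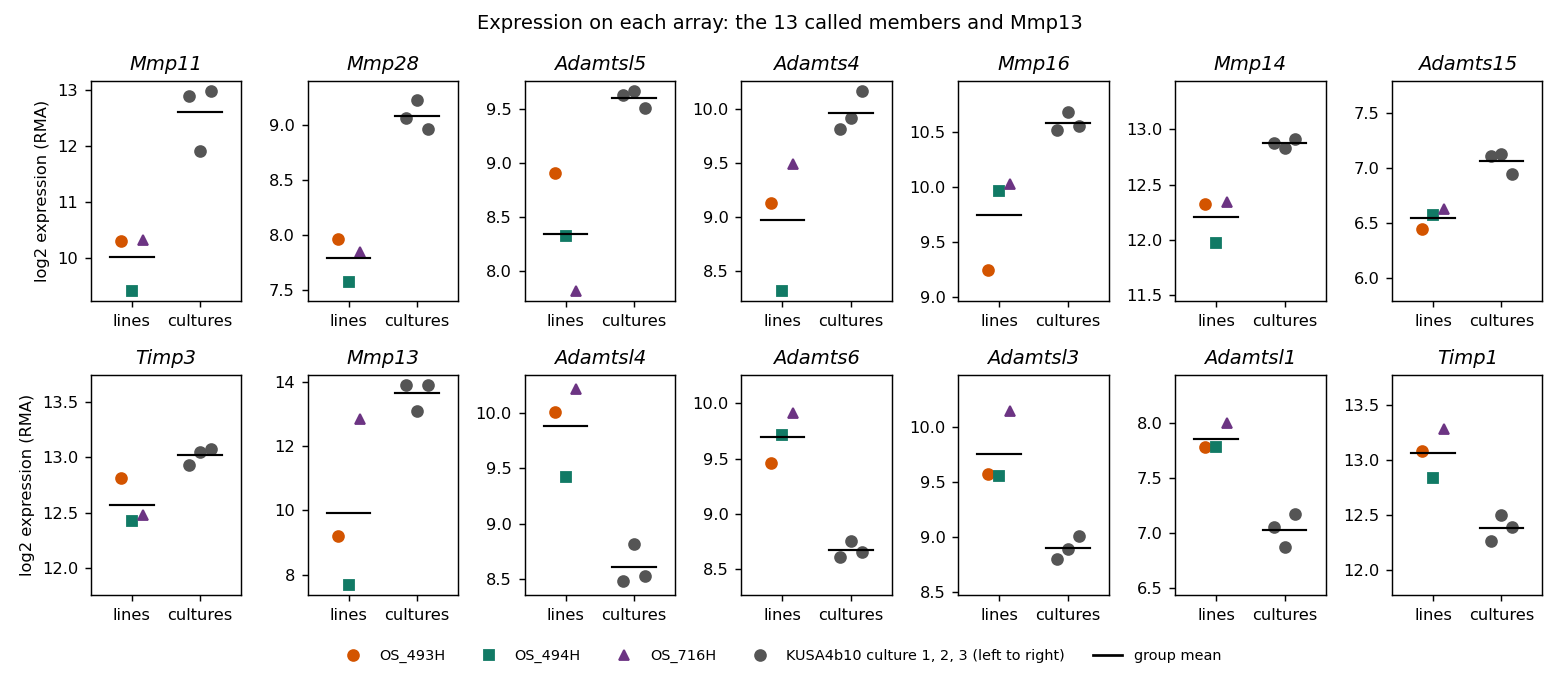
Log2 expression on each of the 6 arrays for the 13 genes that passed the test and for Mmp13, with a bar at the mean of each group of 3 and a scale of its own in each panel. In all 14 panels the lines and the cultures do not overlap, and Mmp13 in OS_716H (12.86) lies next to culture 2 (13.11), far above the other 2 lines.

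The largest difference of all 49 genes belonged to Mmp13, and it did not pass the test. Mmp13, collagenase 3, read 9.19, 7.67 and 12.86 in OS_493H, OS_494H and OS_716H, against 13.92, 13.11 and 13.92 in cultures 1, 2 and 3. OS_493H and OS_494H were far below the cultures, and OS_716H was just below the lowest of them. The groups did not overlap, but the lines differed among themselves by 5.19 units. The lines averaged 9.91 ± 2.67 (SD, n = 3) and the cultures 13.65 ± 0.47 (SD, n = 3), a difference of -3.74 ± 1.22 (SE, adjusted p = 0.0699). Without OS_716H the difference was -5.22 ± 0.49 (SE), a 37.3-fold lower level that passed (adjusted p = 0.00289), and without OS_494H it was -2.63 (0.114). Without culture 2 it was -4.01 (0.128). Of the measured osteoblast markers, Alpl, Ibsp, Sp7 and Col1a1 were highest in OS_716H among the lines, whereas Phex and Dmp1 were lowest there. Alpl was 12.41 in OS_716H, against 9.73 and 10.29 in OS_493H and OS_494H, and Phex was 6.40, against 8.05 and 7.73. Ibsp was 8.20, against 6.60 and 6.40, and thus remained far under the cultures (12.91 to 13.67). Col10a1, the collagen of hypertrophic chondrocytes, which also make MMP13, read 7.31, 6.79 and 8.23 in the lines against 11.05, 9.58 and 11.90 in the cultures. The relation of these levels to Mmp13 was not tested.

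The gelatinases did not pass. Mmp2, gelatinase A, was 13.19, 12.73 and 13.25 in OS_493H, OS_494H and OS_716H against 13.56, 13.28 and 13.51 in the cultures (-0.39 ± 0.16 SE, adjusted p = 0.129). The lines lay below the cultures, with OS_716H only just under culture 2, and the 95% interval of the difference was -0.77 to -0.01. Mmp9, gelatinase B, an enzyme of osteoclasts and neutrophils, was 8.51 in OS_493H, but 7.06 and 7.09 in OS_494H and OS_716H, against 7.90, 7.80 and 7.68 in the cultures. OS_493H thus lay above every culture and the other 2 lines below every culture. In those 2 lines the level was under the median of all values, where signal cannot be told from background. The difference over all lines was -0.24 ± 0.38 (SE, adjusted p = 0.722). Without OS_493H, the only line above the cultures, it was -0.71 ± 0.09 (SE, adjusted p = 0.00772). Without OS_494H it was 0.01 (adjusted p = 0.99), and without OS_716H -0.00 (0.997). The pass thus depended on leaving out OS_493H.

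The other 9 genes of the chromosome 9 cluster, among them the collagenases Mmp1a, Mmp1b and Mmp8, the stromelysins Mmp3 and Mmp10, the macrophage elastase Mmp12 and the enamel enzyme Mmp20, showed no comparable difference. Their differences lay between -0.25 and 0.03, none passed, and each had both group means under the median of all values, where an array value cannot be told from background without a detection call. Without OS_716H, Mmp3 was called lower (-0.37, adjusted p = 0.0204), at levels of 5.86 and 5.92 in the remaining lines and 6.21 to 6.32 in the cultures. Outside the cluster, Mmp19 and Mmp23 did not pass and varied among the lines: Mmp19 was 10.38, 8.92 and 10.59 and Mmp23 was 11.41, 9.90 and 10.88 in OS_493H, OS_494H and OS_716H. In both, OS_494H lay below the lowest culture (10.05 and 10.08), while OS_493H and OS_716H lay above the highest (10.23 and 10.74). Mmp21, at 6.64 to 6.93 on all arrays, differed by 0.05.

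Among the ADAMTS proteases, Adamts6 was the gene that rose. Adamts6 is a close relative of Adamts10, and both are linked to fibrillin microfibrils. Adamts6 was 9.46, 9.71 and 9.91 in OS_493H, OS_494H and OS_716H against 8.61, 8.75 and 8.65 in the cultures. Each line lay above each culture. The difference was 1.02 ± 0.12 (SE, adjusted p = 0.00228), a 2.03-fold higher level, and it held without any 1 array (adjusted p up to 0.0163). Adamts10 was 9.45, 9.26 and 9.74 in the lines against 8.84, 9.22 and 9.01 in the cultures (0.46 ± 0.15 SE, adjusted p = 0.0754). Its groups did not overlap, though OS_494H and culture 2 nearly touched. Of the fits that left out 1 array, only that without OS_494H passed (0.57, adjusted p = 0.0356). In the others the adjusted p was 0.0678 to 0.227. The remaining genes of this group, Adamts17 and Adamts19, differed by -0.28 and -0.05 and did not pass, although 1 of the 5 probe sets of Adamts17 did (adjusted p = 0.0435 over all probe sets). That probe set was the dimmest of the 5, at 5.38 to 6.08 on all arrays, under the median of all values.

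Of the 7 proteases that cut aggrecan, versican and related proteoglycans, 2 fell and none rose. Adamts4, an aggrecanase, was 9.13, 8.31 and 9.49 in OS_493H, OS_494H and OS_716H against 9.82, 9.92 and 10.17 in the cultures (-1.0 ± 0.29 SE, adjusted p = 0.0487). The lines lay below the cultures, with OS_494H lowest. This call was close to the threshold and was lost on leaving out any 1 array except OS_494H and OS_716H, with an adjusted p of up to 0.155. Adamts15 was 6.45, 6.57 and 6.63 in the lines against 7.11, 7.13 and 6.95 in the cultures (-0.51 ± 0.09 SE, adjusted p = 0.00746). All its values were under the median of all values, so a 1.43-fold difference was called at a low signal. Adamts9, a versican-cleaving enzyme, was 9.70, 9.39 and 10.36 in the lines against 10.59, 10.33 and 10.12 in the cultures, with overlapping groups (-0.53, adjusted p = 0.193). Without OS_716H the difference was -0.81 and passed (adjusted p = 0.0217). The 6 probe sets of Adamts9 gave differences from -0.81 to -0.03, none of which passed with all 6 arrays. Adamts8 and Adamts20 stayed under the median of all values and differed by -0.04 and 0.07.

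Adamts1 and Adamts5, which cut versican and aggrecan, are neighbouring genes in the RefSeq annotation, and OS_493H was high for both. Adamts1 read 11.37, 9.81 and 9.36 in OS_493H, OS_494H and OS_716H, against 9.23, 9.46 and 9.38 in the cultures (0.82 ± 0.48 SE, adjusted p = 0.282). Adamts5 read 12.63, 10.82 and 11.09 in the same lines, against 11.03, 10.83 and 11.30 in the cultures (0.46 ± 0.46 SE, adjusted p = 0.539). OS_493H lay 2.01 and 1.58 units above the culture mean for Adamts1 and Adamts5. OS_716H lay within the range of the cultures for both. Neither gene passed, and a single line gives no replicate of its own level.

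The largest positive differences were those of Adamts16 and Adamts3, and neither passed. Adamts16 was 8.48, 6.92 and 9.61 in OS_493H, OS_494H and OS_716H against 7.0, 6.81 and 6.85 in the cultures (1.45 ± 0.61 SE, adjusted p = 0.144). OS_494H and the cultures were under the median of all values. OS_494H was within the range of the cultures, and without it the difference was 2.15 ± 0.31 (SE, adjusted p = 0.00517). Without OS_716H it was 0.81 (0.243). Adamts3, a procollagen N-propeptidase that also processes the precursor of VEGF-C, showed the same order of lines. It was 8.89, 8.16 and 10.65 in OS_493H, OS_494H and OS_716H against 7.87, 7.85 and 7.95 in the cultures (1.34 ± 0.58 SE, adjusted p = 0.151). All lines lay above all cultures, OS_494H only narrowly. Without OS_494H the difference was 1.88 (adjusted p = 0.0323), and without OS_716H it was 0.64 (0.085). The related propeptidase Adamts14 differed by -0.33 and did not pass (adjusted p = 0.103). Of the fits that left out 1 array, only that without OS_494H passed (-0.45, adjusted p = 0.0123). In the others the adjusted p was 0.192 to 0.261.

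Adamts3 was measured by 16 probe sets, which read the same RNA and are not replicates. All 16 gave a positive difference, from 0.61 to 2.71, and in all 16 OS_716H was highest, OS_493H next and OS_494H lowest of the lines. OS_716H lay 1.26 to 4.46 units above the culture mean, OS_493H 0.43 to 2.50 above it, and OS_494H between -0.14 and 1.16 from it. All lines lay above all cultures in 14 of the 16, and 2 probe sets passed when all probe sets were tested (lowest adjusted p = 0.0445). In these 2, the cultures (5.10 to 5.80) and OS_494H (6.52 and 6.70) were under the median of all values. There, signal cannot be told from background. The probe set with the highest mean, used for the gene, gave a difference in the lower part of the range of 0.61 to 2.71.

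**Figure D3:**
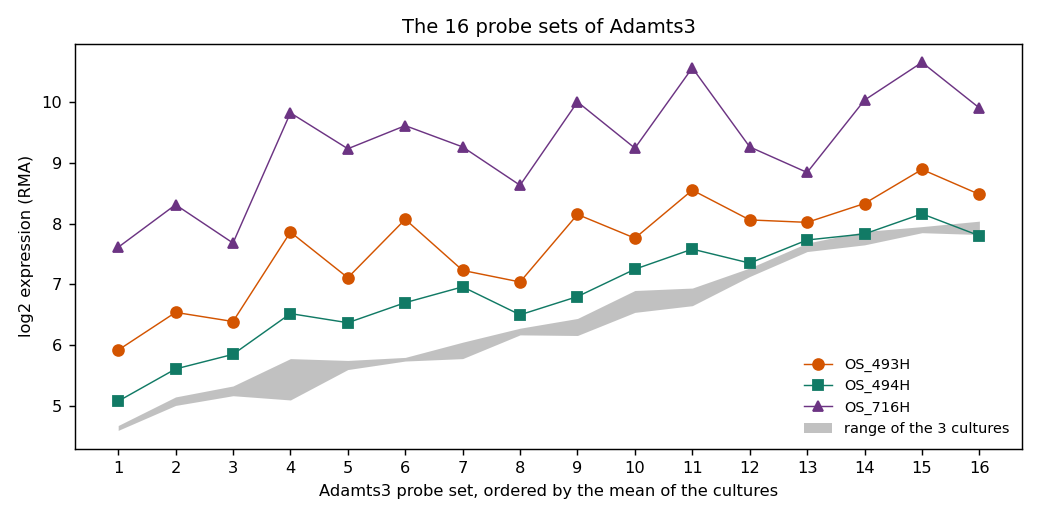
Log2 expression of the 16 probe sets of Adamts3, ordered by their mean in the cultures, for each line (symbols joined by a thin line for reading only) and for the range of the 3 cultures (grey band). OS_716H is above OS_493H and OS_493H above OS_494H in all 16, and OS_494H lies above all cultures in 14 of them.

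Adamts12 and Adamts7, which cut the cartilage protein COMP, did not pass. Adamts12 had the widest spread after Mmp13, at 10.25, 8.27 and 11.18 in OS_493H, OS_494H and OS_716H against 9.33, 10.12 and 8.95 in the cultures (0.43 ± 0.72 SE, adjusted p = 0.733). It was also among the 2 genes, with Mmp11, that ranged over more than 1 unit in the cultures, where culture 2 was highest. Adamts7 was 8.58, 8.15 and 9.21 in the lines against 8.76, 8.62 and 8.59 in the cultures. Comp itself was 7.55, 6.95 and 9.26 in the lines against 7.04 to 7.08 in the cultures (0.85, adjusted p = 0.323), with OS_716H highest as for Adamts12 and Adamts7. Adamts13, the protease of von Willebrand factor, and Adamts18 differed by -0.11 and 0.11 at levels under the median of all values.

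The ADAMTS-like genes, whose products lack a protease domain and in part bind fibrillin microfibrils, held 3 of the 5 genes that rose. Adamtsl4, a fibrillin 1 partner, was 10.01, 9.42 and 10.22 in OS_493H, OS_494H and OS_716H against 8.48, 8.81 and 8.52 in the cultures. All lines lay above all cultures, and the level was 2.43-fold higher (1.28 ± 0.21 SE, adjusted p = 0.00663). Adamtsl3 was 9.57, 9.55 and 10.14 in the lines against 8.80, 8.89 and 9.01 in the cultures (0.86 ± 0.17 SE, adjusted p = 0.0124), and its call was lost without culture 1 (0.0574). Adamtsl1 was 7.78, 7.78 and 8.0 in the lines against 7.05, 6.87 and 7.17 in the cultures (0.82 ± 0.11 SE, adjusted p = 0.00292). The cultures were under the median of all values for this gene. The further probe set of Adamtsl1 gave a smaller difference of 0.47, which also passed (adjusted p = 0.0173 over all probe sets).

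Adamtsl5 went the other way. It was 8.91, 8.32 and 7.81 in OS_493H, OS_494H and OS_716H against 9.63, 9.67 and 9.51 in the cultures, a 2.39-fold lower level (-1.26 ± 0.26 SE, adjusted p = 0.0142). All lines lay below all cultures, and OS_716H was lowest. The call was lost without culture 1 (-1.25, adjusted p = 0.0586). Adamtsl2 was 7.16, 7.16 and 7.30 in the lines against 7.11 to 7.28 in the cultures and did not pass (0.03, adjusted p = 0.847).

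The inhibitors moved in different directions and by less than 2-fold. Timp1, a soluble inhibitor of most metalloproteinases, was 13.08, 12.83 and 13.28 in OS_493H, OS_494H and OS_716H against 12.26, 12.50 and 12.39 in the cultures. All lines lay above all cultures (0.68 ± 0.13 SE, adjusted p = 0.0113), a 1.60-fold higher level, and the call was lost without culture 1 (adjusted p = 0.0528). Timp3, which binds to the extracellular matrix and also inhibits ADAMTS proteases, was 12.81, 12.42 and 12.48 in the lines against 12.93, 13.05 and 13.08 in the cultures (-0.45 ± 0.12 SE, adjusted p = 0.0344). OS_493H was the line closest to the cultures. The call of Timp3 was lost on leaving out any 1 array except OS_493H, with an adjusted p of up to 0.121. Timp2, the partner of MT1-MMP in the activation of MMP2, was 13.08 in OS_493H and 12.63 in OS_494H, against 12.82 to 12.84 in the cultures, and OS_716H lay 0.17 above the culture mean. The cultures fell inside the range of the lines, and the difference was 0.07, with a 95% interval of -0.23 to 0.37. Timp4 was 5.80, 5.85 and 5.85 in the lines against 6.84, 6.02 and 6.37 in the cultures, all under the median of all values (-0.58 ± 0.20 SE, adjusted p = 0.0801). Without culture 2, the lowest culture, its difference of -0.77 passed (adjusted p = 0.0215).

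The lines differed among themselves more often in these genes than in all genes. Of the 49 genes, 13 (26.5%) ranged over more than 1 log2 unit among the 3 lines, against 4.98% of all genes, and 2 (4.08%) did so among the cultures, against 1.15%. All 13 were among the 29 genes whose higher group mean exceeded the median of all values, of which they were 44.8%, against 7.44% of all such genes. OS_494H was the lowest line in 11 of the 13, against 52.7% of all genes with such a range. OS_716H was the highest in 8 and OS_493H in 5. Over all 49 genes, OS_716H was the highest line in 33 (67.3%, against 38.4% of all genes). That count was not split by brightness. It includes genes among the 20 with both group means under the median, where lines can differ by hundredths. Adamts8, for example, was 7.11, 7.09 and 7.12 in OS_493H, OS_494H and OS_716H. These are descriptions of 3 lines, with no test, and genes on the same array are not independent.

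**Figure D4:**
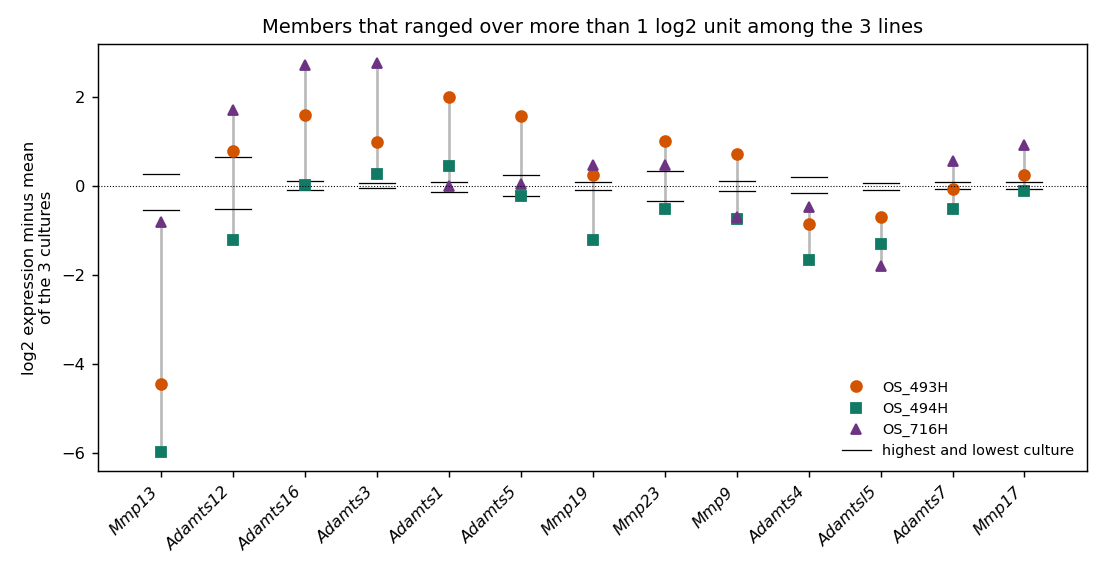
Log2 expression of each osteosarcoma line minus the mean of the 3 cultures, for the 13 genes that ranged over more than 1 unit among the lines, with short bars at the highest and the lowest culture. OS_494H is lowest in 11 of the 13, OS_493H stands above the other lines for Adamts1 and Adamts5 (2.01 and 1.58), and OS_716H for Adamts16 and Adamts3 (2.72 and 2.76).

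Genes that act with these proteases were divided as well. Of 26 measured activators, binding partners and other proteases of the cell surface and matrix, 4 rose and 4 fell, with a median difference of -0.02. Over all genes 13.2% rose and 11.4% fell, so these counts were near the background of the comparison. Plau, urokinase, which makes the MMP activator plasmin, was 11.22, 10.11 and 11.53 in the lines against 8.29 to 8.56 in the cultures (2.51 ± 0.35 SE, adjusted p = 0.00349). Pcolce2 and Pcolce, enhancers of procollagen C-propeptide removal, rose by 2.76 and 0.61, and the tolloid protease Tll1 by 1.90. Fap, fibroblast activation protein, fell most (-3.22, adjusted p = 0.000754). The proprotein convertase Pcsk6, cathepsin K (Ctsk) and the serine protease Htra3 also fell, with differences of -2.74, -1.65 and -0.84. Furin, which activates MMP11 and MT1-MMP, and the membrane-bound inhibitor Reck did not pass (-0.25 and -0.81, adjusted p = 0.0615 and 0.108). Without culture 1 the list held 2 higher and 2 lower genes.

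Of 10 ADAM genes, relatives of the ADAMTS that are anchored in the membrane, Adam10 rose (0.41, adjusted p = 0.0316) and none fell. That call was lost without culture 1, without culture 3 and without OS_716H, and 2 ADAM genes were called higher without OS_494H. Of 15 measured substrates, 3 rose and 3 fell, against 13.2% and 11.4% of all genes. The microfibril gene Fbn2 rose by 3.73, the basement membrane gene Nid1 by 1.35 and Col3a1 by 1.18, whereas the type IV collagen chains Col4a2 and Col4a1 (-2.07 and -1.64) and fibronectin (Fn1, -0.28) fell. Versican (Vcan), the substrate of Adamts1, Adamts4, Adamts5, Adamts9 and Adamts15, was 13.28, 12.31 and 13.44 in the lines against 12.38, 11.78 and 12.31 in the cultures and did not pass (0.85, adjusted p = 0.105). Aggrecan (Acan) was at 6.43 to 6.64 on all arrays.

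Of 14 measured AP-1, ETS and Runx factors, 3 rose and 3 fell, against 13.2% and 11.4% of all genes. The AP-1 subunits Jun and Fosl2 rose by 0.71 and 0.73 (adjusted p = 0.00244 and 0.00403) and Fos fell (-0.50, adjusted p = 0.0449). The ETS factor Etv1 rose by 1.21, and Ets2 and Etv5 fell (-1.0 and -0.38). With culture 1, culture 3 or OS_493H left out in turn, 1 factor was called lower each time. Runx3 did not pass (-1.17, adjusted p = 0.182), at 7.88, 10.25 and 8.96 in OS_493H, OS_494H and OS_716H against 10.04 to 10.38 in the cultures.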

How the data were processed

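Total RNA of 6 samples was measured on 1 array each. The authors deposited log2 expression values, made with RMA (version not given in the sources used here) and build mm9, per the submitters' processing notes. This method summarises background-corrected probes, can understate large differences and gives no call of detection. Of 35556 probe sets, 21789 had 1 gene symbol in the platform annotation, which gave 19938 genes. Groups came from the sample titles.

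The lmFit and eBayes functions of limma 3.58.1, under R 4.3.3, tested lines against cultures (two-sided, all 6 arrays, no filter or covariate), with Benjamini-Hochberg adjustment over all genes. Differences are osteosarcoma minus osteoblast. The fit was tested on simulated data. No scan dates or batches were used here. Lines have no replicate numbers that pair them with cultures. No 2 arrays held the same values.

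The genes, the related lists and the marker lists were chosen with earlier results of these data known. Every called gene of the 49 is named, and so are those not called that differ by over 1 log2 unit. Protein sequences were not used here. Promoter sequences are from RefSeq, build GRCm38.p6, and were matched by symbol. Some genes on these lists, among them Bglap, Spp1, Runx2, Ccnb1 and Fbn1, were not analysed here. Alternatives were other scaling, filter, moderation, array weights, probe set and threshold choices, cultures 1 and 3 as 1 replicate, and leaving out each array.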

Additional observations from a re-analysis of the deposited data

How the results depend on the processing

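Of the 13 called genes, 7 (Mmp11, Mmp14, Mmp28, Adamts6, Adamts15, Adamtsl1 and Adamtsl4) passed at an adjusted p under 0.05 under every alternative of scaling, filter, model, probe set or arrays that tested them, and Mmp16, Timp1, Timp3, Adamts4, Adamtsl3 and Adamtsl5 lost their call under some. Of the 36 other genes, 10 passed under some of these. No called value changed sign. The genes called higher numbered 5 and those called lower 8. With at least a 2-fold change these were 2 and 3, and at an adjusted p under 0.01 they were 3 and 4. With the mean of cultures 1 and 3 as 1 replicate, 4 genes were lower. On leaving out 1 array, 3 to 8 were higher and 4 to 10 lower. Over all genes, 2622 were higher and 2274 lower. Without OS_494H these were 2733 and 2314 and without OS_716H 2796 and 2136, while without culture 1 they were 1533 and 1211, without culture 3 1610 and 1350, with cultures 1 and 3 as 1 replicate 1606 and 1316, at an adjusted p under 0.01 1394 and 1072, and with at least a 2-fold change 811 and 561. The cause of these changes was not tested. No paired analysis was possible because the lines carry no replicate number. Of the 49 genes, 20 had both group means under the median of all values, and 1 of these, Adamts15, was called.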

Other observations

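In the RefSeq gene order, 3 of the 4 Timp genes are listed directly after a synapsin gene: Timp1 after Syn1, Timp3 after Syn3 and Timp4 after Syn2. This order does not show whether the genes overlap or lie within each other. The gene listed after Timp4 is Pparg, the regulator of fat cell differentiation. Pparg was 10.78, 10.14 and 9.96 in OS_493H, OS_494H and OS_716H and 12.43, 11.80 and 12.10 in cultures 1, 2 and 3 (-1.82 ± 0.25 SE, limma adjusted p = 0.0034). All 8 adipocyte markers, Pparg among them, were lower in the lines. Timp4 itself did not pass (limma adjusted p = 0.0801), with all values under the median of all values. A relation between the levels of Timp4 and Pparg was not tested.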
